A study of Homo sapiens with 59 samples.

Results

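The MYC, MAX and MXD network was followed through its 8 member genes in Jurkat cells restricted for a single essential amino acid. The rule names the members and uses no measured value, although earlier results of these data were known when they were picked: MYC, its partner MAX, the MAX-binding repressors MXD1, MXD3, MXD4, MXI1 and MNT, and the MAX-binding protein MGA. They are 8 of the 34622 genes that have a row in any of the 7 deposited tables. All 8 have a row in each table, and all passed the filter of a mean of at least 10 normalised counts in each.

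Jurkat is an established line of human T cell leukaemia. The restricted cells were labelled as 25% histidine, 25% methionine, 25% phenylalanine, 25% tryptophan, 25% isoleucine, 25% leucine or 25% valine, with 5 libraries per amino acid, all at day 3. The controls were a histidine, a methionine, a phenylalanine and a tryptophan control group of 5 libraries each, and a branched-chain (BCAA) control group of 4 libraries, numbered 1, 3, 4 and 5, that served isoleucine, leucine and valine together. No genetic change is labelled, and the labels do not say that a group's libraries are separate cultures. A p-value therefore sets a difference against the spread among these libraries only, and that spread may be technical. In bulk RNA, fewer cells of a type and less RNA per cell cannot be told apart. Each comparison asks which mRNAs differed between restricted cells and the control of the same amino acid.

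MYC is a basic helix-loop-helix leucine zipper factor that binds DNA as a dimer with MAX, above all at the E-box CACGTG, and raises transcription of genes for ribosome production, nucleotide synthesis and cell growth. The MXD proteins and MNT compete for MAX and for the same sites, and recruit SIN3 and histone deacetylases, so that the same genes are repressed. MGA binds MAX too and brings it into a variant Polycomb complex, PRC1.6. In T cell leukaemia MYC is well known as a target of NOTCH1 and as a driver of growth.

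The libraries were T cell in character and held between 14.9 and 20.5 M normalised counts each. CD3E, a chain of the T cell receptor complex, had 10600.0 to 20620.0 normalised counts in every library, whereas the monocyte gene CD14 had a median of 3.58. The T cell gene CD28 was low, at 8.58 to 287.6, and the collagen gene COL1A1 was present at 134.5 to 4358. In 4 libraries, phenylalanine restricted 2, phenylalanine control 1, BCAA control 1 and valine restricted 2, mRNAs of ribosomal proteins lay 0.97, 0.71, 1.10 and 0.59 log2 units above the other libraries of the group, and long mRNAs lay 0.68, 0.50, 0.52 and 0.63 below. Results that rest on these libraries are given below with and without them.

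An E-box lies near the start site of 2 of the repressors. RefSeq promoter windows of GRCh38.p14, 250 bases before to 50 after a start site, were matched for 7 of the 8 members, all but MYC, and comprised 12 windows. The letters CACGTG, which read the same on both strands, were found in 2 of the 12 windows, those of MXD4 and MNT, against 7.26% of all 35116 windows. With 12 windows, no share is read as particular to the members. The letters TGATGNAAT, a motif of the amino acid response factor ATF4, were searched on both strands and found in none, against 0.991% of all windows. The 250 bases before the start site are shown for MXD4 (chr4:2262110-2262359, minus strand) and MNT (chr17:2401061-2401310, minus strand), with CACGTG in capitals, beginning 238 and 193 bases before the start site. They are also shown for MXD3 (chr5:177312753-177313002, minus strand), the member with the largest change described below, whose window holds neither motif. A match describes letters, not a bound site.
MXD4: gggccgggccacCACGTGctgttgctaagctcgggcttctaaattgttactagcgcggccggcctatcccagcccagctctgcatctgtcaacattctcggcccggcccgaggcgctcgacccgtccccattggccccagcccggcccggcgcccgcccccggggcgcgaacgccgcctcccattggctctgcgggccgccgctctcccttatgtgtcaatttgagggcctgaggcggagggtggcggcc
MNT: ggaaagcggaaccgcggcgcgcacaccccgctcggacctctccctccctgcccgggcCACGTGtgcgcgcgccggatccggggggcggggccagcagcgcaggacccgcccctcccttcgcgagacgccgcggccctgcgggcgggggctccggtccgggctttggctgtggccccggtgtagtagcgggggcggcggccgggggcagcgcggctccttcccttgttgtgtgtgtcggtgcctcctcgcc
MXD3: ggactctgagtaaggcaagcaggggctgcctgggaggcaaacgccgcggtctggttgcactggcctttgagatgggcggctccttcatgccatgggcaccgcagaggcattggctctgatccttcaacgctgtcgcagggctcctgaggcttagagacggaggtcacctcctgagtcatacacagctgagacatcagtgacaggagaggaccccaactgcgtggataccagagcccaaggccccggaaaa

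MYC (chr8:127735434-127742951 in GRCh38.p14, as are all positions here) was lower under histidine, methionine and tryptophan restriction and higher under leucine restriction. It was 2.51-fold lower under tryptophan, 1.92-fold lower under methionine, 1.56-fold lower under histidine and 1.59-fold higher under leucine. In these 4 comparisons no restricted library overlapped a control library. A gene is called here when its adjusted p, from limma on log2(normalised count + 1) with Benjamini-Hochberg adjustment over all genes of a table, is below 0.05, and every fold change is on that log2 scale. The values below are normalised counts in the order of the libraries' numbers.

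Under tryptophan restriction, MYC had 3783, 2903, 3473, 4460.0 and 3575 in restricted libraries and 7528, 10029, 9299, 8410.2 and 10174 in control libraries. The lowest control, at 7528, stood well above the highest restricted library, at 4460.0 (log2 fold change -1.33 with SE 0.11, adjusted p = 1.46e-07). MYC averaged 3639 ± 563 in restricted and 9088 ± 1118 in control libraries (SD, n = 5 each). Under methionine restriction it had 1739.5, 2110.2, 1635, 1956 and 1464 in restricted libraries and 3693, 3726, 2492, 3916 and 3384 in control libraries. The restricted libraries were all lower, although control 3 came close to them (log2 fold change -0.94 with SE 0.12, adjusted p = 2.17e-05). Under histidine restriction it had 3173, 2532, 2606, 2679 and 2618 in restricted libraries and 5406, 4231, 3694, 4160.1 and 3844 in control libraries. Restricted library 1 was the highest of its group and still below the lowest control (log2 fold change -0.64 with SE 0.10, adjusted p = 0.000323).

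Under leucine restriction, MYC had 5027, 5801, 4766, 5408 and 6239 in restricted libraries and 4035, 3302, 2920.2 and 3452 in BCAA controls. All 5 restricted libraries were above all 4 controls (log2 fold change 0.67 with SE 0.11, adjusted p = 0.00526). Under valine restriction it had 4395, 4038, 4067, 4875 and 4927 in restricted libraries and 4299, 3438, 3064 and 3628 in the same controls. Control 1, a library high in ribosomal protein mRNA, lay among the restricted libraries. MYC was not called (log2 fold change 0.31 with SE 0.13, adjusted p = 0.128). Without that control and valine restricted 2 the difference was called, at an adjusted p of 0.00455. With all libraries kept, MYC was also called when they were scaled to equal totals (0.43, adjusted p = 0.0143) or weighted (0.39, adjusted p = 0.00779). Under isoleucine restriction it ranged over 3439 to 4685 in restricted and 3046 to 4208 in control libraries, and under phenylalanine restriction over 2894 to 3683 in restricted and 2991 to 3850.0 in control libraries. Those ranges overlapped, and neither difference was called (log2 changes 0.20 and -0.08, adjusted p = 0.797 and 0.706).

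**Figure D1:**
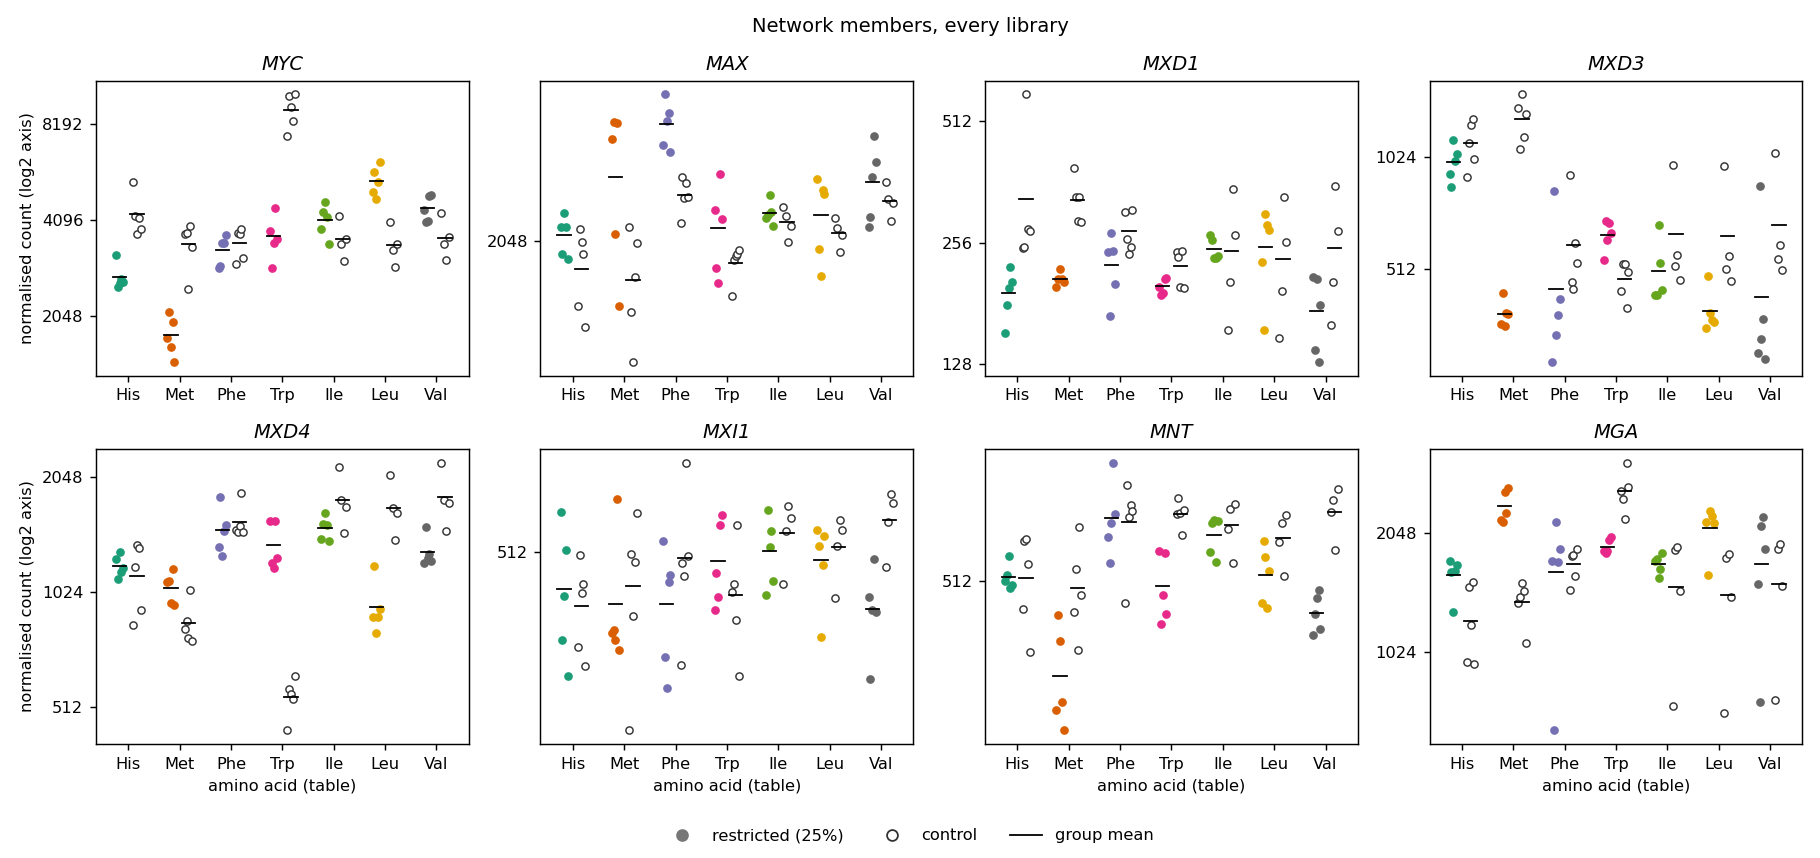
Normalised counts (log2 axis, a separate scale in each panel) of the 8 members in every library, by amino acid table; filled points are restricted libraries, open points controls and bars group means. MYC is separated from its controls under His, Met, Trp and Leu, and the 4 BCAA controls appear in the Ile, Leu and Val columns with values scaled in each table.

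Set on 1 scale, as normalised counts per M (1000000) of a library's total, the tryptophan controls stood apart from the other controls. Each of the 5 held more MYC than any library of another group. MYC was 491 ± 64.9 per M there (SD, n = 5), against 253 in histidine, 206 in BCAA, 205 in methionine and 199 in phenylalanine controls. The order of the 12 groups ran on from the tryptophan controls through leucine restricted (341), valine restricted (273), histidine control, isoleucine restricted (244) and tryptophan restricted cells (233). Below them came the BCAA and methionine controls, phenylalanine restricted cells (205), phenylalanine controls, histidine restricted cells (165) and methionine restricted cells (116). Neighbours in that order had ranges that did not overlap at 3 places, below the tryptophan controls, below the leucine restricted group and between the histidine and methionine restricted groups. Tryptophan restricted cells thus held MYC at 233 ± 32.4 per M, inside the span of group means of the other controls. What sets the tryptophan controls apart was not tested, and the response to tryptophan and the level of its controls cannot be told apart.

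**Figure D2:**
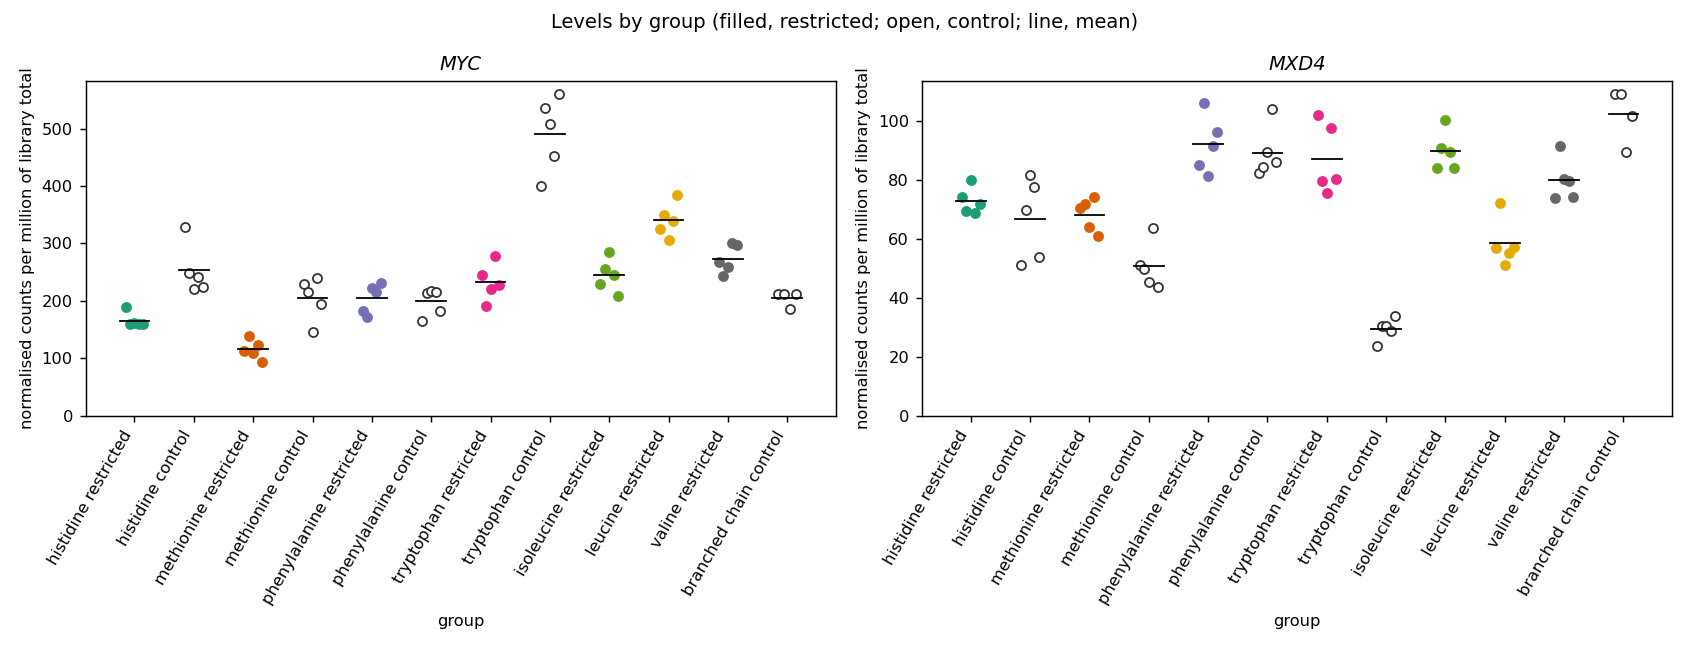
MYC and MXD4 as normalised counts per M of the library total in the 12 groups; points are libraries (filled, restricted; open, control) and bars are means. The tryptophan controls hold the highest MYC mean (491) and the lowest MXD4 mean (29.5) of the 12 groups.

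Across the network, methionine restriction changed most members and isoleucine restriction none. Under methionine 7 of 8 members were called, 3 higher and 4 lower, where 53.2% of all 16889 genes tested were called. Under tryptophan it was 5, 2 higher and 3 lower, against 51.3% of all genes, and under histidine 3, 1 higher and 2 lower, against 27.9%. Under phenylalanine 1 member was higher, against 10.2% of all genes, under leucine 1 was higher and 1 lower, against 7.75%, and under valine 2 were lower, against 12.5%. Under isoleucine limma called 0 of 8 members, and 0% of all genes were called. At an unadjusted p under 0.05 isoleucine still had 0 members and 872 genes. The shares of members called under tryptophan were near the background, and with 8 members no share is read as particular to the network.

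**Figure D3:**
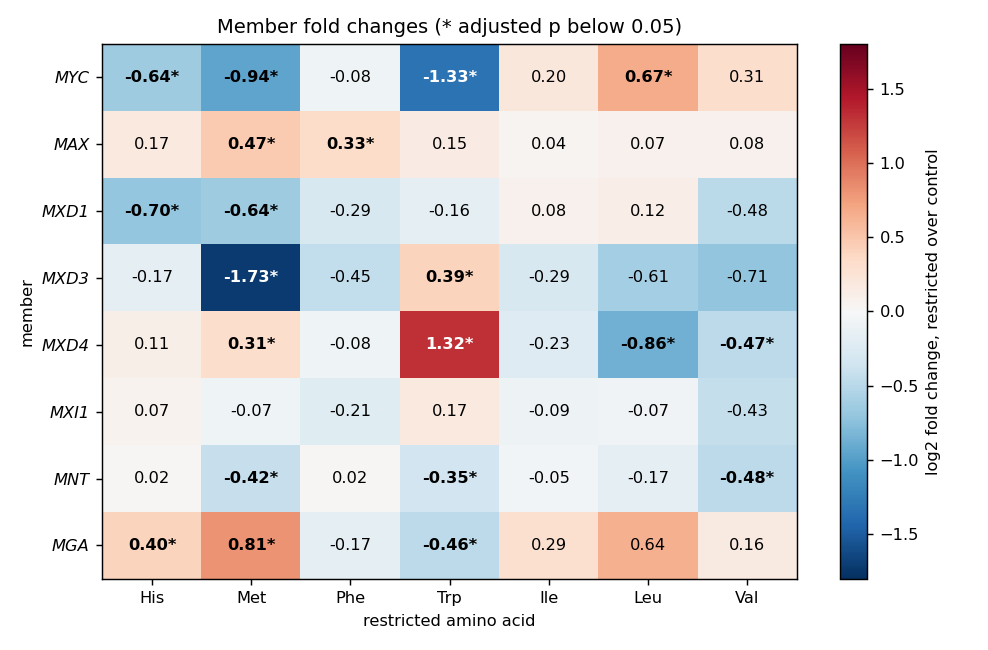
Log2 fold change, restricted over control, of each member (rows) under each restricted amino acid (columns); a star marks an adjusted p below 0.05 (limma, Benjamini-Hochberg). MYC and MXD4 have opposite signs in 6 of the 7 columns, and MXI1 has no star.

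MAX (chr14:65006101-65102695), the shared partner of all the others, was higher under methionine and phenylalanine restriction and was not called elsewhere, except under tryptophan when libraries were scaled to equal totals (log2 fold change 0.40, adjusted p = 0.00158, against 0.15 and 0.17 as deposited). Under phenylalanine it had 2801, 3312, 3034, 3114 and 2745 in restricted libraries and 2171, 2526, 2355, 2481 and 2366 in control libraries. All restricted libraries were above all controls, by a factor of 1.26 (log2 fold change 0.33 with SE 0.09, adjusted p = 0.0289). The call was lost with no filter on low values (adjusted p = 0.0627), with the replicate number as a block (0.0972), and without restricted 3 or 4 or control 3 or 5 (0.066 to 0.0811). Under methionine it had 2857, 3026, 2097, 3015 and 1655 in restricted libraries and 2141, 1624, 1376, 1819 and 2038 in control libraries. Restricted libraries 3 and 5 lay among the controls, and the call was lost when any of 5 libraries was left out (log2 fold change 0.47 with SE 0.17, adjusted p = 0.0286). MAX overlaps FNTB, a subunit of protein farnesyltransferase, on the opposite strand. No source used here gives the strand setting of the quantification, so reads of the 2 genes may not be fully separated. FNTB had log2 fold changes of 0.60 under methionine and -0.38 under phenylalanine.

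MXD4 (chr4:2247432-2262109), a repressor of the MXD family, was called opposite to MYC under methionine, tryptophan and leucine restriction, and was also lower under valine. It was 2.49-fold higher under tryptophan restriction and 1.82-fold lower under leucine restriction. Under tryptophan it had 1572, 1218, 1187, 1569 and 1259 in restricted libraries and 445, 571, 554, 537 and 616 in control libraries. The groups lay far apart, with means of 1361 ± 193 in restricted and 545 ± 63.1 in control libraries (SD, n = 5 each; log2 fold change 1.32 with SE 0.11, adjusted p = 1.44e-07). As for MYC, the tryptophan controls were at the end of the order of all 12 groups, at 29.5 ± 3.73 per M. Tryptophan restricted cells, at 87.1, lay between phenylalanine controls (89.3) and histidine controls (66.8).

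Under leucine restriction, MXD4 had 881, 1197, 799.5, 882 and 927 in restricted libraries and 2075, 1697, 1399 and 1649 in BCAA controls. Every restricted library was below every control (log2 fold change -0.86 with SE 0.14, adjusted p = 0.00366). Under valine restriction it had 1219.5, 1522, 1259, 1290.1 and 1233 in restricted libraries and 2236, 1787, 1485 and 1753 in the same controls. Restricted library 2 reached above control 4, and this call was near the threshold (log2 fold change -0.47 with SE 0.13, adjusted p = 0.0399). It was lost with no filter on low values (adjusted p = 0.0581), with the trimmed mean of M values (0.0523) and without any of 7 libraries, restricted 1, 3, 4 or 5 or BCAA control 1, 3 or 5 (0.0577 to 0.0933). Under methionine restriction it had 1086, 1093, 957, 1179.5 and 949.6 in restricted libraries and 819.6, 861, 775, 1038 and 765 in control libraries, where control 4 lay among the restricted libraries (log2 fold change 0.31 with SE 0.10, adjusted p = 0.0149). Isoleucine, histidine and phenylalanine gave log2 fold changes of -0.23, 0.11 and -0.08, none called (adjusted p = 0.797, 0.536 and 0.735).

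Across the amino acids, MYC and MXD4 mostly lay on opposite sides of their controls, but not when libraries of the same restriction were compared. Over the 35 restricted libraries, each as log2 units from the mean of its own controls, Pearson's r was -0.88, the lowest of all member pairs. These points share their controls within an amino acid, and the 3 branched-chain amino acids share 1 control group. The tryptophan points are measured from controls with the highest mean MYC and the lowest mean MXD4 of all groups. The part of that in r was not tested. The signs were opposite in 32 of 35 libraries, with MYC below its control mean in 18 libraries and MXD4 in 20. When the mean of each amino acid was removed, r was 0.43, so that among libraries of the same restriction the 2 genes tended to be high together. The pair was picked for description after its values were seen.

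**Figure D4:**
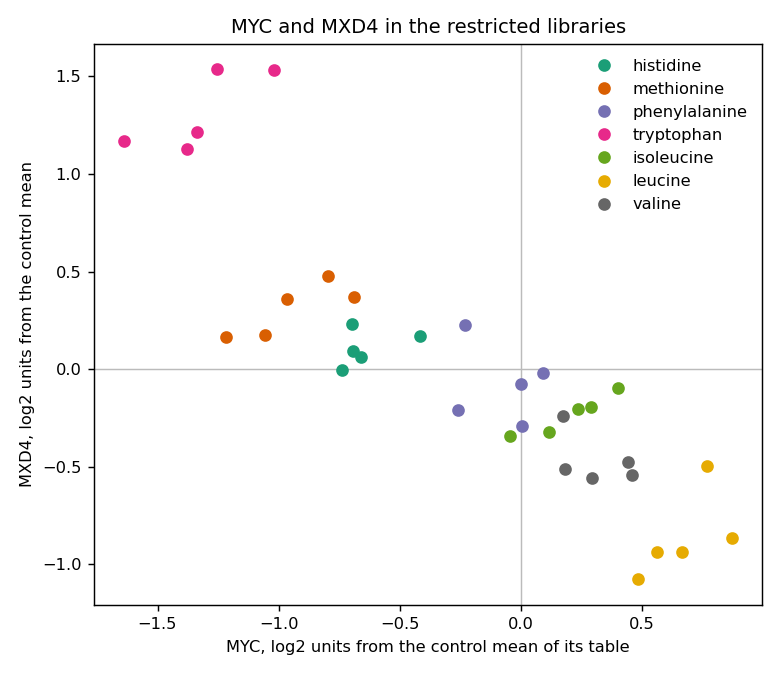
MYC (x axis) and MXD4 (y axis) in the 35 restricted libraries, as log2 units from the mean of the controls in the same table; colours mark the restricted amino acid. The 5 tryptophan libraries lie at the upper left and the 5 leucine libraries at the lower right, and points of a single colour do not follow the downward slope.

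MXD3 (chr5:177305499-177312752), a family member tied in mouse to the S phase of dividing cells, had the largest log2 fold change of any member in any comparison. Under methionine restriction it had 365, 442, 359, 390.0 and 388 in restricted libraries and 1388, 1081, 1512, 1163 and 1336 in control libraries. The restricted libraries were tightly grouped, and their mean was 3.31-fold below that of the controls (log2 fold change -1.73 with SE 0.10, adjusted p = 1e-08). The order reversed under tryptophan restriction, where MXD3 had 541, 690.1, 614, 679 and 639 in restricted libraries and 447, 527, 529, 403 and 503 in control libraries. Every restricted library was above every control there, by a factor of 1.31 (log2 fold change 0.39 with SE 0.10, adjusted p = 0.00355). The difference between these responses was itself called (methionine minus tryptophan -2.12 log2 units, SE 0.14, adjusted p = 3.65e-11). Per M of the library total, MXD3 was highest of all groups in methionine controls (77.0). Among control groups it was lowest in tryptophan controls (26.0), with 33.9 to 66.1 in the others. Methionine restricted cells held 25.2 and tryptophan restricted cells 40.5. Each of these responses and the level of its controls cannot be told apart.

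Under the remaining amino acids MXD3 was not called, and single libraries stood apart in the phenylalanine groups, the valine restricted group and the BCAA controls. Phenylalanine restricted 2 had 829 against 288 to 425 in the other 4 restricted libraries, and phenylalanine control 1 had 919 against 453 to 602 in the other controls. Valine restricted 2 had 855 against 293 to 375 in the rest of its group, and BCAA control 1 had 979 in the isoleucine table against 479 to 561. These are the 4 libraries high in ribosomal protein mRNA. Without them MXD3 was lower under phenylalanine at an adjusted p of 0.0109 and under valine at 0.000977, and the part of those libraries in its level was not tested. In methionine restricted cells 75 ribosomal protein mRNAs had a median log2 fold change of -1.27, and in tryptophan restricted cells that median was -0.13.

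MXD3 overlaps PRELID1, a mitochondrial lipid transfer gene, on the opposite strand, and RAB24, a small GTPase gene, on the same strand. PRELID1 moved the other way, with 0.58 under methionine and -0.56 under tryptophan. RAB24 had -0.03 under methionine (adjusted p = 0.863) and 0.69 under tryptophan (adjusted p = 7.82e-06). Estimated counts of the same-strand neighbours can be divided between them, so the tryptophan rise in MXD3 is uncertain.

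MXD1 (chr2:69915109-69942945), the repressor best known for rising as blood cells mature, was lower under histidine and methionine restriction. Under methionine it had 199, 208, 219.7, 207 and 205 in restricted libraries and 391, 332, 289, 331 and 288 in control libraries. The groups did not overlap (log2 fold change -0.64 with SE 0.11, adjusted p = 0.000227). Under histidine it had 153, 179.7, 197, 223 and 204 in restricted libraries and 248, 249, 596, 276 and 273 in control libraries. Control 3, at 596, stood well above the other controls, but the lowest control, at 248, was still above the highest restricted library (log2 fold change -0.70 with SE 0.21, adjusted p = 0.0264). Without control 3 the histidine log2 fold change was -0.46, the smallest of the alternatives, and still called. The histidine call was lost without restricted library 1 (adjusted p = 0.0685) or 2 (0.0522). MXD1 overlaps SNRNP27, a splicing factor gene, on the same strand, and SNRNP27 was higher under methionine (0.45). MXI1 (chr10:110207605-110287365), the remaining MXD protein, was called in none of the 7 comparisons as deposited, with log2 fold changes of -0.43 to 0.17. With equal totals it was higher under tryptophan (0.41, adjusted p = 0.0114). Its nearest to a call was under valine, with 442, 335, 422, 501 and 419 in restricted libraries and 488, 566, 622 and 603 in BCAA controls (log2 fold change -0.43 with SE 0.15, adjusted p = 0.0724). Restricted library 4 lay above control 1 and every other restricted library below all controls. MXI1 was called lower under valine without the libraries high in ribosomal protein mRNA (-0.42, adjusted p = 0.0141), with library weights (0.0145) and without BCAA control 1 alone (0.0359).

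MNT (chr17:2384073-2401060), a broadly expressed MAX-binding repressor, was lower under methionine, tryptophan and valine restriction. Under valine it had 429.5, 460.0, 484, 498 and 437 in restricted libraries and 643, 669, 567 and 694 in BCAA controls. No restricted library reached the lowest control (log2 fold change -0.48 with SE 0.12, adjusted p = 0.0242), although the call was lost with equal totals (adjusted p = 0.0727) and without restricted 1, 3 or 5 or BCAA control 3 or 5 (0.0508 to 0.0887). Under tryptophan it had 566, 445, 488, 561 and 460.0 in restricted libraries and 637, 673, 640.2, 596 and 646 in control libraries. Again the groups were apart (log2 fold change -0.35 with SE 0.08, adjusted p = 0.0034). Scaling all libraries to equal totals, however, left the tryptophan difference uncalled (adjusted p = 0.302). Under methionine it had 336, 459, 420.5, 344 and 313 in restricted libraries and 462, 533, 408, 612 and 489 in control libraries. Restricted 2 and 3 lay above control 3 (log2 fold change -0.42 with SE 0.13, adjusted p = 0.0153). That call too was lost with equal totals (adjusted p = 0.093).

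MGA (chr15:41621224-41769940), the MAX partner of PRC1.6, went opposite ways under methionine and tryptophan restriction. Under methionine it had 2211, 2193, 2613, 2301 and 2673 in restricted libraries and 1361, 1409.7, 1533, 1461 and 1079 in control libraries. The lowest restricted library was far above the highest control, and the mean was 1.76-fold higher (log2 fold change 0.81 with SE 0.10, adjusted p = 8.45e-06). Under tryptophan it had 1843, 1822, 1844, 1973 and 2000.3 in restricted libraries and 2632, 2503, 2234, 3098 and 2686 in control libraries. The restricted libraries were close to each other and all below the controls, by a factor of 1.38 (log2 fold change -0.46 with SE 0.08, adjusted p = 0.000157). The call held under every alternative, at log2 fold changes of -0.52 to -0.22. Per M of the library total, MGA was 142 in tryptophan controls, 72.6 to 97.8 in the other controls and 121 in tryptophan restricted cells. The ranges of the tryptophan groups overlapped on that scale. As for MYC, the tryptophan response and the level of its controls cannot be told apart. The responses differed by 1.28 log2 units (methionine minus tryptophan, SE 0.13, adjusted p = 2.09e-08).

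Under histidine restriction MGA had 1742, 1631, 1295, 1639 and 1706 in restricted libraries and 964, 1495, 1196, 1538 and 954 in control libraries. Restricted library 3 lay among the controls (log2 fold change 0.40 with SE 0.14, adjusted p = 0.0411), and the call was lost when any of 7 libraries was left out, at adjusted p of 0.0635 to 0.0971. MGA has a long mRNA, 14439 bases in its longest annotated basic coding transcript. The median log2 fold change of genes with a mean of at least 100 and a coding transcript of at least 8000 bases was 0.16 under methionine (909 genes), -0.04 under tryptophan (922 genes) and 0.14 under histidine (916 genes). In the 4 libraries with low long mRNAs, MGA was 646 in phenylalanine restricted 2, 1471 in phenylalanine control 1, 748 in BCAA control 1 and 763 in valine restricted 2. Each was the lowest of its group, and the part of transcript length in these values was not tested.

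The responses of members differed between amino acids in 58 of 168 tests, 8 members in 21 pairs of amino acids. These were limma interaction tests, adjusted over the genes of a pair, and the 3 pairs among isoleucine, leucine and valine leave out the error of their shared controls. MYC differed in 16 of 21 pairs, MXD4 in 14, MXD3 in 11, MGA in 6, MXD1 in 5, MNT in 4, MXI1 in 2 and MAX in 0. Among all genes tested, the number called ran from 113 of 16348 (phenylalanine and valine) to 8631 of 16094 (methionine and tryptophan). The member counts are to be read against these, and none is read as particular to the network. The widest gap for MYC was tryptophan minus leucine, -1.997 log2 units (SE 0.16, adjusted p = 5.43e-09), and for MXD4 it was the same pair, 2.18 (SE 0.18, adjusted p = 5.63e-09). No difference was called for MYC between histidine and methionine (0.30, SE 0.17, adjusted p = 0.173), or between methionine and tryptophan (0.38, SE 0.18, adjusted p = 0.0747). Among the branched-chain amino acids, the change in MYC was higher under leucine than under valine (leucine minus valine 0.36, SE 0.10, adjusted p = 0.0172) and lower under isoleucine than under leucine (isoleucine minus leucine -0.47, SE 0.09, adjusted p = 0.00266). MXD4 differed the other way in both pairs (-0.40 for leucine minus valine and 0.63 for isoleucine minus leucine, adjusted p = 0.022 and 0.000501).

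Of the other family genes, MYCN, the MYC paralogue of neural tissue, was higher in 5 of 7 comparisons. It was low in level, with 133 ± 19.8 normalised counts in tryptophan restricted and 24.6 ± 3.47 in tryptophan control libraries (SD, n = 5 each; log2 fold change 2.39 with SE 0.18, adjusted p = 7.48e-08). Valine gave 289 ± 25.8 in restricted (n = 5) and 121 ± 7.73 in BCAA control libraries (n = 4; log2 fold change 1.25 with SE 0.15, adjusted p = 0.000212). Histidine, methionine and leucine gave log2 fold changes of 0.73, 0.71 and 0.68 (adjusted p = 0.00369, 0.00982 and 0.0258). The tryptophan controls were again at the end of the order, at 1.33 per M against 4.23 to 6.93 in the other controls. MYCL, the third paralogue, was lower under histidine, methionine and phenylalanine (-0.41, -0.37 and -0.55). With equal totals each of these MYCL calls was lost, and the histidine call was also lost with the trimmed mean of M values. MLX, the MAX-like partner of the glucose sensor MLXIP (MondoA), was higher under methionine (0.51, adjusted p = 0.000405) and lower under tryptophan (-0.57, adjusted p = 3.58e-05), while MLXIP itself was higher in both (0.35 and 0.33). MLXIPL had fewer than 10 normalised counts and was not tested.

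The genes that MYC is known to induce were lower together in tryptophan restricted libraries than in their controls. Those controls held the most MYC of all groups. A response of the listed genes and the state of the tryptophan controls cannot be told apart, here or for the gene lists below. Of 34 listed genes, chiefly nucleolar and ribosome assembly factors, 33 were lower and 0 higher, where 27.7% of all genes tested were called lower. Their median log2 fold change was -1.08 against 0.03 over all genes. BYSL, a factor of small subunit assembly, averaged 767 ± 63.4 in restricted and 2327 ± 42.7 in control libraries (SD, n = 5 each; log2 fold change -1.60 with SE 0.06, adjusted p = 2.96e-10). RRP12 and WDR43, which act in pre-ribosome maturation, had log2 fold changes of -1.44 and -1.66 (adjusted p = 3.11e-10 and 3.19e-10). The exception was SLC29A2, a nucleoside transporter (log2 fold change 0.14 with SE 0.21, adjusted p = 0.59). With equal library totals 32 were lower and the median was -0.83, where the all-gene median was 0.27.

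Under methionine restriction, with MYC also lower, the same list split, with 15 genes higher, 9 lower and a median of 0.22 against 0.02 over all genes. Of all genes tested, 27.8% were called higher and 25.4% lower there, so calls in both directions are also the pattern of the whole table. The ribosome assembly factors PES1, PPAN and NOP2 were higher (1.12, 1.06 and 1.03; adjusted p = 1.12e-08, 2.21e-07 and 3.06e-07). On the other side, LDHA, which makes lactate dehydrogenase, NPM1, the nucleophosmin gene, and TERT, the telomerase catalytic subunit, had -1.25, -1.14 and -4.40, the last with 13.0 ± 9.10 in restricted and 199 ± 35.5 in control libraries (SD, n = 5 each). These 3 were named after their values were seen. PES1 averaged 2713 ± 208 in restricted and 1247 ± 40.2 in control libraries (SD, n = 5 each). Histidine gave 5 higher and 9 lower, against 15.6% and 12.3% of all genes, with a median of -0.03 against -0.01. The chaperonin gene HSPE1 and LDHA were lower there (-1.04 and -0.71), and NOP56, a core box C/D snoRNP protein, was higher (0.91).

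Under leucine restriction, with MYC higher, 9 of the 34 were higher and 0 lower, where 3.41% of all genes were called higher and 4.33% lower, with a median of 0.21 against 0.00. NOLC1, a nucleolar chaperone, ODC1, the first enzyme of polyamine synthesis, and TFRC, the transferrin receptor, had the smallest adjusted p values of the list, with log2 fold changes of 0.81, 0.62 and 0.56 (adjusted p = 0.000726, 0.0027 and 0.00426). The count was 4 without restricted 3, restricted 4 or BCAA control 3, 5 without restricted 5, and 14 without BCAA control 1. Calls over all genes moved too, to 511, 512, 844, 553 and 1674 under these omissions in the same order, against 1277 with every library. Valine gave 8 higher and 5 lower, against 5.13% and 7.36% of all genes, with a median of 0.20 against 0.01, among them NOP56 (1.36) and LDHA (-1.78). Phenylalanine gave 2 higher and 3 lower, against 4.11% and 6.09% of all genes, with a median of 0.04 against 0.03, among them NPM1 and LDHA (-0.99 and -0.94). Without the libraries high in ribosomal protein mRNA those counts of called genes were 21 for valine and 16 for phenylalanine, and leaving out phenylalanine restricted 2 alone gave 9. Calls over all genes rose as well, from 2096 to 4210 for valine and from 1736 to 4435 for phenylalanine. They were 2451 without phenylalanine restricted 2 alone. With equal totals valine gave 11 higher and 5 lower (median 0.31 against 0.13 over all genes). Phenylalanine gave 7 higher and 3 lower on that scale (median 0.15 against 0.15). Of calls over all genes, 63.7% were then higher under valine and 67.0% under phenylalanine. Isoleucine gave 0 calls in either direction.

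**Figure D5:**
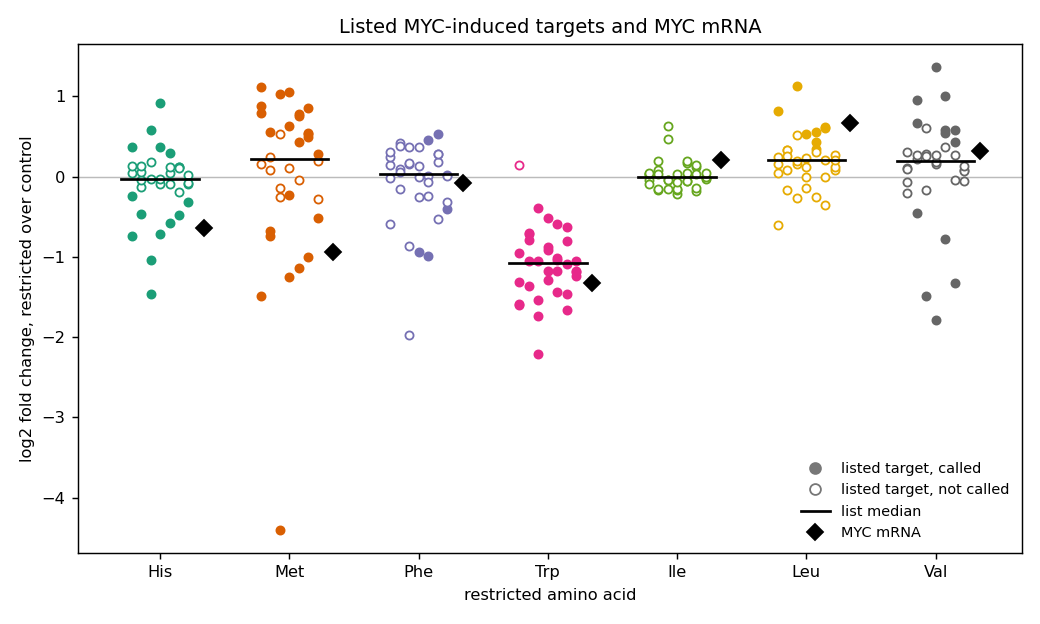
Log2 fold changes, restricted over control, of the 34 listed MYC-induced genes under each restricted amino acid (filled, called; open, not called), with the list median (bar) and MYC itself (diamond). Under Trp 33 of 34 genes are called lower beside MYC at -1.33, whereas under Met, with MYC at -0.94, genes are called on both sides and the median is 0.22.

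Genes that MYC is known to repress were 5 in the list, of which 4 passed the filter. Of these, 3 were higher and 1 lower under tryptophan. None was higher elsewhere, and 1 was lower under histidine, 3 under methionine, 2 each under phenylalanine, leucine and valine, and 0 under isoleucine. Of all genes tested, 23.6% were called higher and 27.7% lower under tryptophan. The shares called lower were 12.3% under histidine, 25.4% under methionine, 6.09% under phenylalanine, 4.33% under leucine and 7.36% under valine. With 4 genes, no count is read as particular to the list. NDRG1, a stress and differentiation gene, was lower under methionine, phenylalanine, leucine, valine and histidine (-0.73, -1.23, -0.44, -1.63 and -0.81) and higher under tryptophan (0.40, adjusted p = 0.00614). CDKN1A, which encodes the cell cycle inhibitor p21, was lower under tryptophan, with 48.7 ± 12.9 in restricted and 259 ± 22.2 in control libraries (SD, n = 5 each; log2 fold change -2.43 with SE 0.19, adjusted p = 1.23e-07), and also lower under phenylalanine and leucine (-1.03 and -0.96, adjusted p = 0.0148 and 0.0185). CDKN1B, which encodes the inhibitor p27, and the DNA damage gene GADD45A were higher under tryptophan (0.19 and 0.34) and lower under methionine (-0.43 and -0.49), and CDKN1B was lower under valine (-0.49).

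The cofactors of both arms are set against all genes tested, of which 23.6% were called higher and 27.7% lower under tryptophan (median 0.03), and 27.8% higher and 25.4% lower under methionine (median 0.02). Those shares were 15.6% and 12.3% under histidine, 4.11% and 6.09% under phenylalanine, 3.41% and 4.33% under leucine, and 5.13% and 7.36% under valine. With equal totals 9686 genes were called under tryptophan, 71.0% of them higher, and the all-gene median was 0.27. The equal-totals counts below are to be read against these. Of 12 MYC coactivators, 1 was higher and 8 lower under tryptophan restriction, among them the AAA+ helicase genes RUVBL1 and RUVBL2 (-0.78 and -1.02, adjusted p = 1.75e-08 and 1.93e-08), and the list median was -0.32. With equal totals 2 were higher and 5 lower. Under methionine 6 were higher and 2 lower with a median of 0.14, with PAF1 higher (0.74). Histidine gave 3 higher and 1 lower, phenylalanine and leucine 1 higher each, RUVBL1 in both (0.53 and 0.51), and isoleucine and valine none. Of 11 genes of the SIN3 corepressor that MXD proteins and MNT recruit, 1 was higher and 7 lower under tryptophan (median -0.24), but 3 higher and 1 lower with equal library totals. Methionine gave 6 higher and 3 lower (median 0.25), with BRMS1 higher (1.13) and the deacetylase gene HDAC1 and the SIN3 subunit SUDS3 lower (-0.41 and -0.33). Histidine gave 4 higher and 1 lower, valine 1 higher, and the other amino acids none.

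The partners of MGA in PRC1.6 were 9 genes, to be read against the same shares of all genes called, 53.2% under methionine and 51.3% under tryptophan (medians 0.02 and 0.03). Under methionine restriction, with MGA higher, 6 were higher and 3 lower (median 0.59), including L3MBTL2 and RING1 (0.83 and 0.80) on one side and CBX3, TFDP1 and PCGF6 (-0.68, -0.76 and -0.68) on the other. Under tryptophan, with MGA lower, 5 were lower and 0 higher, with L3MBTL2 at -0.92 (adjusted p = 1.62e-07) and a median of -0.42. With equal totals that split was 2 higher and 4 lower, where 71.0% of calls over all genes were higher and the all-gene median was 0.27. Histidine gave 2 higher and 1 lower, phenylalanine, leucine and valine 1 higher each, and isoleucine none. Of all genes, 27.9% were called under histidine, 10.2% under phenylalanine, 7.75% under leucine and 12.5% under valine.

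Genes that set the life of the MYC protein were 12 in all. Under tryptophan restriction 0 were higher and 9 lower (median -0.42), against 23.6% and 27.7% of all genes. Under methionine 4 were higher and 6 lower (median -0.05), against 27.8% and 25.4%. Equal totals gave 2 higher and 4 lower under tryptophan, and 6 higher and 4 lower under methionine. On that scale 71.0% of calls over all genes were higher under tryptophan and 62.6% under methionine. SKP2, a ubiquitin ligase subunit that acts on MYC, was lower in both (-1.10 and -1.30; adjusted p = 1.15e-06 and 1.69e-07). USP36, a nucleolar deubiquitinase of MYC, was lower under tryptophan (-0.67) and higher under methionine (1.05). Histidine gave 3 higher and 2 lower, against 15.6% and 12.3% of all genes, and the other amino acids none. The MYC partner ZBTB17 (MIZ1) was higher under methionine and phenylalanine (0.55 and 0.49) and lower under tryptophan (-0.57), and PVT1, the long non-coding RNA next to MYC, was called in none of the 7 comparisons.

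Among 15513 genes tested in every table, those whose pattern over the 35 restricted libraries was most like that of MYC were the uracil DNA glycosylase gene UNG, the pseudouridine synthase gene PUS7, the pyrimidine synthesis gene CAD, the tubulin gene TUBB and the replication stress gene TOPBP1, each with a Pearson's r of 0.93. CAD was also a listed MYC target. Its log2 fold changes were -0.72 under tryptophan, -0.68 under methionine and 0.33 under leucine. The most opposed were PLEK (-0.96), the proapoptotic gene BMF, the ATF4 target TRIB3, WDR11 and MRPS31P5 (-0.93 each). TRIB3 had log2 fold changes of 2.61 under tryptophan, 2.21 under methionine, 1.06 under histidine and -0.59 under leucine. As above, these points share controls, and the values describe these libraries.

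The other members had their own nearest genes. MXD4 was most like WBP1, the kinase gene DYRK1B and PI16, with r of 0.96, 0.95 and 0.94. MGA was most like RANBP2, USP24 and HELZ (0.97, 0.95 and 0.95), and MXD3 was most like SLC25A29, MYL6B and the ribosomal protein gene RPS20 (0.95, 0.93 and 0.93). MXD3 and MGA were themselves opposed, with r of -0.77. The nearest genes of the remaining members were less alike, RAB5C for MAX (0.78), CCSAP for MXD1 (0.87), PACS1 for MXI1 (0.71) and PRR36 for MNT (0.86).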

How the data were processed

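RNA was measured by bulk RNA-seq in 59 libraries of Jurkat cells at day 3, grouped by the labels' treatment. For each of the 7 amino acids the authors deposited tables of normalised counts, treated here as a signal (never below 0). Per the labels' protocols the libraries were strand-specific. FastQC (0.11.9), the pseudoaligner kallisto (0.50.1), DESeq2 (1.44.0) and GRCh38 stand in the submitters' processing notes, with no settings. Annotation release and strand setting: not given in the sources used here. Each deposited table was normalised separately, so tests were made within each table, and levels across tables are given per 1000000 of a library's total. Low values were whole multiples of a library's step, within 0.1, for 51.9% to 84.0% of values, so whole reads were not recovered and no count model was used.

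In R 4.3.3, limma 3.58.1 (lmFit, eBayes with trend, two-sided) was applied to log2(normalised count + 1) of genes averaging at least 10, with p-values Benjamini-Hochberg adjusted over the genes of a table and called below 0.05. Tables were read with the data.table package (1.17.8). Interaction tests covered 21 pairs of amino acids. Likeness was the Pearson correlation over 35 restricted libraries, with the 5 highest and lowest genes named for MYC and the 3 highest for others. The fits were tested on simulated data. The members and lists were chosen with earlier results of these data known. All members are named. From each list the 3 genes with the smallest adjusted p in a comparison, and any gene of a list of 10 or fewer, could be named. SLC29A2, and LDHA, NPM1 and TERT under methionine, were named after their values were seen. Levels per 1000000, long-mRNA medians and list counts by direction under other scalings were added after seeing the data. Positions and sequences are from RefSeq, GRCh38.p14. Alternatives comprised pseudocounts of 0.25 and 5, a minimum mean of 0 or 100, trimmed mean of M values, equal totals, the replicate number as a block, library weights, omission of libraries high in ribosomal protein mRNA, and each library left out in turn.

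Same-numbered libraries of the restricted and control groups did not deviate together throughout, so the numbers were not taken as pairing.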

Additional observations from a re-analysis of the deposited data

Results flagged for a closer look

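In 12 of 96 groups of member values, the extreme library stood farther from its nearest neighbour than Dixon's 95% critical value allows. Chance flags about 1 in 20 groups. In normalised counts, the high ones were MYC at 3173 in histidine restricted 1 (next 2679), MXD1 at 596 in histidine control 3 (next 276), MXI1 at 612 in methionine restricted 4 (next 395) and MXD4 at 1859 in phenylalanine control 4 (next 1528) and 1522 in valine restricted 2 (next 1290.1). MXD3 accounts for 4 more, at 829 in phenylalanine restricted 2 (next 425), 855 in valine restricted 2 (next 375), 492 in leucine restricted 2 (next 391) and 979 in BCAA control 1 of the isoleucine table (next 561). The low ones were MGA at 1295 in histidine restricted 3 (next 1631) and 1609.7 in leucine restricted 2 (next 2171), and MAX at 1711 in tryptophan control 1 (next 1926). Of these libraries, phenylalanine restricted 2, valine restricted 2 and BCAA control 1 are among the 4 high in ribosomal protein mRNA; the part of that in the values was not tested.

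The response to restriction differed between amino acids, by a limma interaction test, in 16 of 21 pairs for MYC, 14 for MXD4, 11 for MXD3, 6 for MGA, 5 for MXD1, 4 for MNT and 2 for MXI1. Among all genes tested, the number called ran from 113 of 16348 (phenylalanine and valine) to 8631 of 16094 (methionine and tryptophan).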

How the results depend on the processing

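Of the 20 called member changes, 12 kept their call and direction under every alternative run, and no called change reversed. The others hung on single libraries or on scaling. The number of members called moved under phenylalanine from 1 to 0 with no filter or the replicate block and to 2 with library weights or without libraries high in ribosomal protein mRNA. Under leucine it was 2 and became 4 with weights. Under valine it was 2 and became 1 with no filter or the trimmed mean of M values, 6 with weights and 5 without libraries high in ribosomal protein mRNA. Under tryptophan it was 5, and with equal totals 6, with MAX and MXI1 gained and MNT lost. Leaving out 1 library gave 1 to 3 members under histidine, 6 to 7 under methionine, 0 to 2 under phenylalanine and 0 to 3 under valine. The libraries that moved those counts by over 1.5 times were histidine restricted 1 and 2, phenylalanine restricted 2, 3 and 4 and control 3 and 5, valine restricted 1, 3, 4 and 5, and BCAA control 3 and 5; without BCAA control 1, MYC was called under valine (adjusted p = 0.0306). The interaction count of 58 was 58 with a pseudocount of 5 and 54 with equal totals. With equal totals the all-gene median of log2 fold changes was 0.15 under methionine, 0.15 under phenylalanine, 0.27 under tryptophan and 0.13 under valine, against 0.02, 0.03, 0.03 and 0.01 as deposited. The share of calls that were higher became 62.6%, 67.0%, 71.0% and 63.7%, against 52.3%, 40.3%, 45.9% and 41.1%. Genes called rose under phenylalanine to 4868 with weights and 4435 without those libraries, against 1736, and fell to 803 with the block. Leucine had 1277, 2699 with weights and 834 with the block, and valine 2096, 4549 with weights and 4210 without those libraries. Isoleucine had 0, and 1 with no filter or without BCAA control 3 or 5. Leaving out 1 library lowered these counts to 1103 under phenylalanine (restricted 4; 1128 for restricted 1), to between 511 and 844 under leucine (restricted 1, 3, 4 and 5, BCAA control 3 and 5) and to between 1110.0 and 1366 under valine (restricted 1, 3 and 5, BCAA control 5). The replicate number as a block lost the phenylalanine call of MAX (adjusted p = 0.0972) and gained MXD3 under valine (0.01); no other member call moved with it. The causes of these shifts were not tested. The libraries' true read depth is unknown, so no counting error is given.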
